A study of Homo sapiens with 6 samples.

Results

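MYC and 9 genes that lie around it at 8q24 were followed in COLO-320DM, an established line of human colorectal cancer cells, sorted by the surface protein CD44. The genes were chosen by name, and every probe set that the array's annotation gives to 1 of them alone was read, 23 probe sets for 10 of the 19775 genes measured. In chromosome order the genes are SQLE, NSMCE2, TRIB1, LRATD2, POU5F1B, MYC, PVT1, GSDMC, CYRIB (also called FAM49B) and ASAP1. Total RNA came from 2 groups of untreated cells, CD44-positive and CD44-negative, with 3 arrays in each, and the labels name no other difference between them. Each group carried the replicate numbers 01, 02 and 03, with nothing said of separate cultures. Errors and p-values therefore measure the spread of these 6 arrays, part of which may be technical.

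MYC encodes a transcription factor that binds DNA as a partner of MAX and drives growth, ribosome production and nucleotide synthesis. In colorectal cancer it is a well-known target of Wnt signalling. COLO-320DM takes its suffix from double minutes, small extrachromosomal DNA circles on which MYC is amplified, and genes close to MYC can be carried along with it. A fusion of PVT1 with MYC has been described in this line. Copy number was not measured here, and the levels below are of RNA only.

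Levels are log2 values of the normalised array intensity. The brightness of a probe set depends on its own probes, so a percentile among all genes describes the signal and not the number of transcripts. The brightest probe set of a gene, by mean over all arrays, stood for it, and genes under the 30th percentile of level (5.12) were left out of the tests as dim. Differences are log2 levels in CD44-positive cells minus those in CD44-negative cells, tested with limma over 13842 genes.

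After normalization, which by itself equalises the arrays, median intensities ran from 44.8 to 46.5. CD44 itself, the check of the labels, stood at 7.70 ± 0.52 in CD44-positive and 5.23 ± 0.22 in CD44-negative cells (SD, n = 3 each). Among 12 markers of colon epithelium, only CDX2 (percentile 97.9), KRT18 (90.6) and KRT8 (77.3) reached the 75th percentile of level. The median of the 12 was percentile 46.3, and the adhesion genes EPCAM and CDH1 were dim. Of the fibroblast markers 4 of 7 tested were higher and none passed, and their summed intensity ranged from 1841 to 4189 in CD44-positive and from 1501 to 2581 in CD44-negative arrays. Leukocyte markers summed to 363.9 to 374.8 in CD44-positive and 363.3 to 404.1 in CD44-negative arrays, and endothelial markers to 457.8 to 482.9 in CD44-positive and 450.2 to 496.1 in CD44-negative arrays. The fibroblast sum reached higher values in CD44-positive arrays, the direction in which LRATD2 and ASAP1 differ below. Its ranges overlapped between the groups, and 3 of the 7 tested markers were lower. The cells are of an established line, so the sums describe transcripts and do not count cells of another type. A link to LRATD2 or ASAP1 was not tested. In RNA from a mass of cells, fewer cells with a transcript and less of it per cell cannot be told apart.

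MYC was among the brightest genes of the arrays and differed little between the sorts. Its single probe set read 14.10, 13.99 and 14.04 in the CD44-positive arrays, against 14.10, 14.03 and 14.04 in the CD44-negative arrays. The 2 groups cover nearly the same narrow range, and all 6 values span a range of 0.11. Its mean ranked 9th of 19775 genes (percentile 99.96), and in single arrays its rank ran from 7 to 12. The 8 brighter genes, named here after their values were seen, were the mitochondrial genes COX2, ND4, ATP6 and ND2, the ribosomal protein genes RPL41, RPL31 and RPS18, and EEF1A1, a translation elongation factor. The difference was -0.014 ± 0.083 (SE), with a 95% confidence interval from -0.20 to 0.18, or from 0.868-fold to 1.13-fold (adjusted p = 1.00). MYC lay close to the top of the scale, where the highest gene of an array stood at 14.36 to 14.41, and whether differences are compressed there was not tested.

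**Figure D1:**
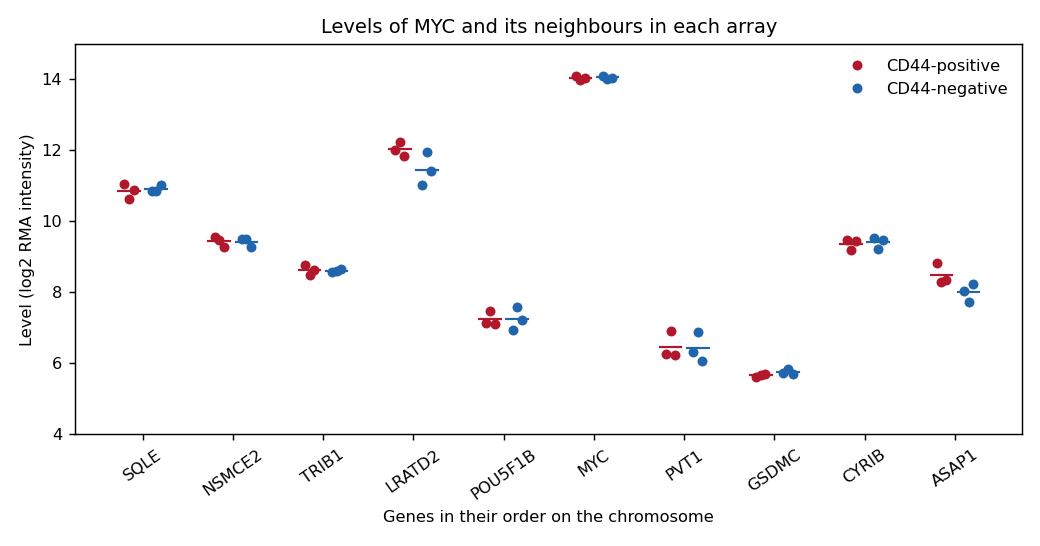
Level of MYC and its 9 neighbours (log2 RMA intensity, vertical axis) in each array, with genes in chromosome order on the horizontal axis; points are arrays, short lines are means of 3. MYC stands near 14 in all 6 arrays, and ASAP1 is the 1 gene whose CD44-positive points all lie above its CD44-negative points.

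The brightness of MYC was shared by some of its neighbours and not by others. Of the 10 genes, 9 lay at or above the 50th percentile of all genes, 6 at or above the 75th and 3 at or above the 95th, and their median was percentile 81.2, where the median over all genes is the 50th by construction. With probe sets averaged by gene instead, 4 lay at or above the 75th and 1, MYC, at or above the 95th. The 3 at the top were MYC, LRATD2, which encodes a protein with an LRAT domain (percentile 98.1), and SQLE, the squalene epoxidase of sterol synthesis (95.4). NSMCE2, the SUMO ligase of the SMC5/6 complex that guards genome stability, stood at percentile 85.9. CYRIB, a binder of RAC1 that restrains actin branching, was at percentile 85.5. TRIB1, a pseudokinase that leads C/EBP proteins to the ubiquitin ligase COP1, was at percentile 76.8 and ASAP1, a GTPase-activating protein for ARF proteins at adhesions and membranes, at percentile 72.3.

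By their single-gene probe sets, the genes next to MYC on either side lay lower. POU5F1B, a retrogene copy of the pluripotency factor POU5F1, stood at percentile 60.6. PVT1, a long non-coding RNA gene that directly follows MYC and is often amplified with it, was at percentile 51.0 by its 1 such probe set, 216249_at. Probe sets that list PVT1 together with MIR1204, a microRNA gene inside it, reached up to percentile 91.9 of probe sets, so the level of PVT1 depends on the probe set read. GSDMC, a member of the pore-forming gasdermins, was the dimmest of the 10 at percentile 40.1. Of the other close neighbours in gene order, the non-coding CASC11 stood at percentile 36.9, LINC00824 at percentile 29.3 and LINC02912 at percentile 8.4. Within 10 places of MYC every non-coding gene other than PVT1 lay below the 50th percentile.

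Set in gene order, the 40 measured genes before MYC were brighter than the 40 after it. The median percentile was 61.1 before and 38.8 after MYC, and among coding genes 72.9 (33 genes) and 50.5 (28 genes), beside 56.8 over all 16521 coding genes of the arrays. Of these 81 genes, MYC included, 4 reached the 95th percentile, MYC, LRATD2, SQLE and NDUFB9, a subunit of respiratory complex I (97.6). All of them other than MYC lay before it in gene order. Among the 10 genes on each side, 5 before and 1 after MYC reached the 75th percentile. These are descriptions of brightness, with no test, and the order was taken from a RefSeq gene table whose genome build the arrays do not name, so no coordinates are given.

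**Figure D2:**
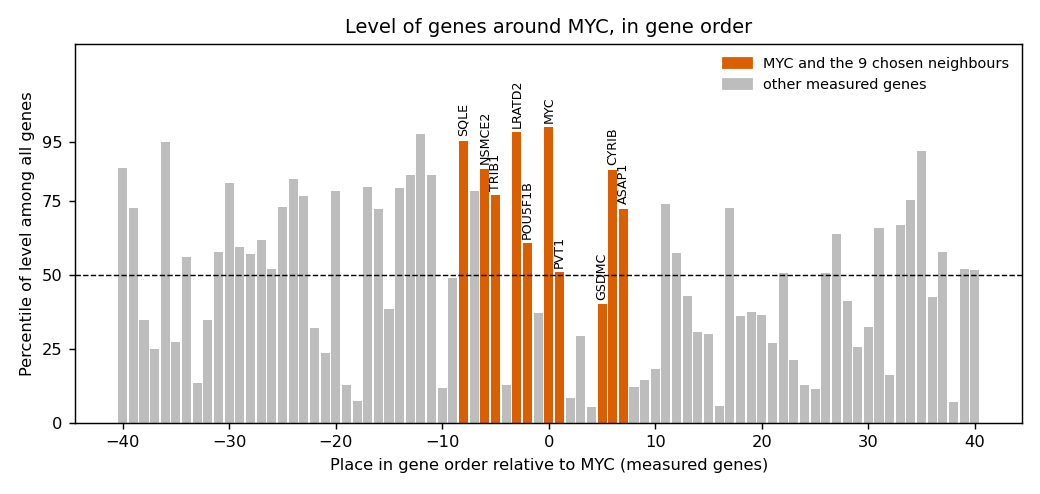
Percentile of level among all 19775 genes (vertical axis) for 40 measured genes on each side of MYC, by place in gene order (horizontal axis, MYC at 0); orange bars are MYC and the 9 chosen neighbours and the dashed line is the 50th percentile. Bright genes lie mostly before MYC, and PVT1, the first gene after it, stands at 51.0 by its single-gene probe set.

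Between the sorts, none of the 10 genes passed the test, and 8 of them differed by less than 0.1. None of all 13842 genes passed either (0%, smallest adjusted p 0.106, for CD44). With same-numbered arrays as pairs 8 genes passed (0.0578%), none of them among these 10. The 10 genes split evenly, 5 higher and 5 lower, with a median of 0.0031 beside -0.0025 over all tested genes. Of all tested genes 48.9% were higher, the share to set beside the splits of the lists below. Among all tested genes 71.3% also differed by less than 0.1. At an unadjusted p under 0.05 there were 2 of the 10, LRATD2 and ASAP1, where the share over all genes was 1.97% (1.24% higher) without the replicate block and 7.49% with it. The groups did not overlap in 1 of the 10, ASAP1, against 5.43% of all genes (2.82% higher), and 1 gene is too few to read against that share. Of the 10 genes 4 had the same sign in all 3 pairs, LRATD2 and ASAP1 higher (13.7% of all genes) and MYC and CYRIB lower (14.8%), beside 28.5% for either sign.

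LRATD2 lay 1.49-fold higher in CD44-positive cells without passing the test. It read 12.03, 12.24 and 11.85 in the CD44-positive arrays, against 11.03, 11.94 and 11.41 in the CD44-negative arrays. The groups overlapped, since CD44-negative array 02 exceeded CD44-positive array 03, and CD44-negative array 01 was the lowest of all. The difference of 0.58 ± 0.22 (SE, 95% interval 0.076 to 1.08) had an adjusted p of 1.00, and of 0.276 with the replicate block, with pair values of 1.00, 0.29 and 0.44. With 1 pair left out, the blocked difference was 0.37 without pair 01 (adjusted p = 0.362), 0.72 without pair 02 (adjusted p = 0.0250) and 0.65 without pair 03 (adjusted p = 0.0995). Of all genes 0.108%, 0.565% and 0.788% were called in these 3 fits. LRATD2 passed only where the pair with its smallest difference, 0.29, was left out, and few arrays remain in such fits. Without CD44-negative array 01 the unblocked difference was 0.36. The other bright LRATD2 probe set, 228870_at, differed by 0.14 ± 0.17 and by 0.39, 0.0017 and 0.021 in the pairs, so that the larger difference rests on 1 of 2 bright probe sets. With the mean over its probe sets LRATD2 differed by 0.31.

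ASAP1 was 1.41-fold higher in CD44-positive cells, again without passing the test, and its 5 probe sets gave much the same size. Its brightest probe set, 224791_at, read 8.82, 8.30 and 8.36 in the CD44-positive arrays, against 8.03, 7.73 and 8.23 in the CD44-negative arrays. Every CD44-positive array lay above every CD44-negative one, though CD44-positive array 02 and CD44-negative array 03 lay close together. The difference was 0.50 ± 0.17 (SE, 95% interval 0.096 to 0.894), with an adjusted p of 1.00, of 0.326 with the replicate block and pair values of 0.79, 0.57 and 0.13. The 2-sided exact permutation test gave p = 0.1, the smallest value 3 arrays against 3 can reach. With 1 pair left out, the blocked difference was 0.35 without pair 01 (adjusted p = 0.544), 0.46 without pair 02 (adjusted p = 0.364) and 0.68 without pair 03 (adjusted p = 0.0134), the fit that called 0.788% of all genes. Pair 03 had the smallest difference of ASAP1, 0.13, and few arrays remain in such fits.

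The other 4 ASAP1 probe sets differed by 0.43 (224796_at), 0.42 (224790_at), 0.48 (221039_s_at) and 0.47 (236533_at). All 5 were higher in 3 of 3 pairs, and in 4 of them the groups did not overlap, where 6.01% of the 38229 probe sets tested did not overlap (3.05% higher) and 13.6% were higher in 3 of 3 pairs. Probe sets of 1 gene read the same RNA and are not replicates. In 236533_at the levels were 6.94, 6.86 and 6.80 in CD44-positive and 6.59, 6.18 and 6.41 in CD44-negative arrays, the widest gap between the groups among the 5. No probe set of the 10 genes passed over all probe sets (1 of 38229, 0.00262%, did). With the replicate block 0.0785% of all probe sets passed and the smallest adjusted p among those of the 10 genes was 0.202, for 224796_at.

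CYRIB, the gene just before ASAP1, did not show this difference. Its main probe set read 9.48, 9.20 and 9.45 in the CD44-positive arrays, against 9.55, 9.22 and 9.47 in the CD44-negative arrays. The 2 groups overlap almost fully, and the difference was -0.032 ± 0.122 (SE, 95% interval -0.31 to 0.25). Taken within each array, ASAP1 minus CYRIB was -0.88 ± 0.22 in CD44-positive and -1.41 ± 0.15 in CD44-negative cells (SD, n = 3 each), with no overlap between the groups. That pair of genes was chosen after the values were seen, so no test is given. GSDMC, on the other side of CYRIB, differed by -0.089 (95% interval -0.29 to 0.11), at 5.67 ± 0.05 against 5.76 ± 0.08.

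**Figure D3:**
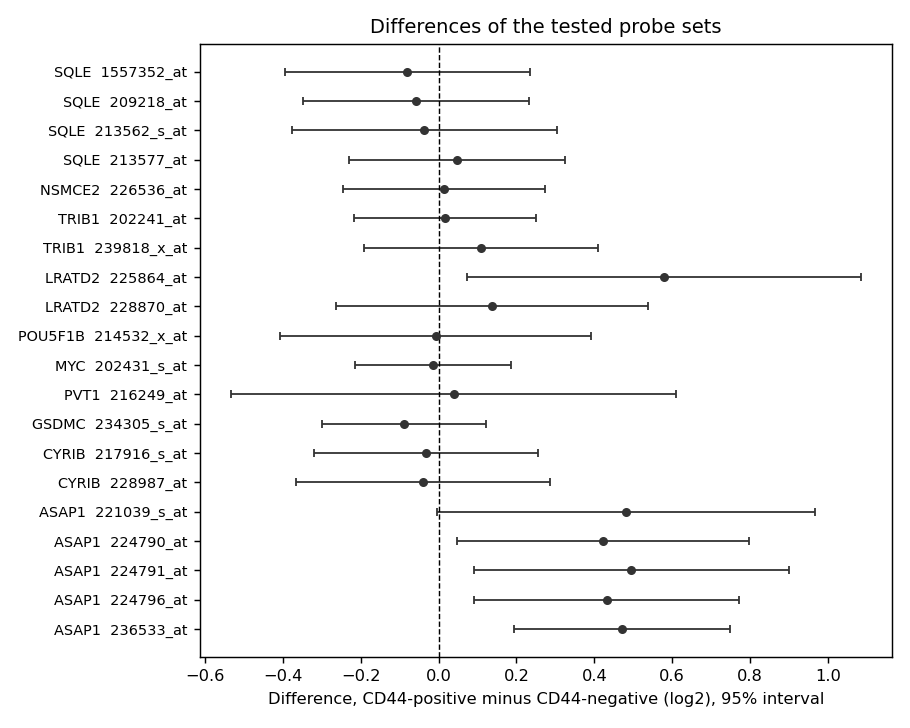
Difference between CD44-positive and CD44-negative cells (log2, horizontal axis) with its 95% confidence interval for the 20 tested probe sets of the 10 genes, in chromosome order from top to bottom. Intervals are from the fit without the replicate block. The 5 ASAP1 probe sets sit between 0.42 and 0.50, the 2 LRATD2 probe sets at 0.58 and 0.14, and the MYC point at -0.014.

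By their single-gene probe sets the remaining genes differed little, within intervals of unequal width. PVT1 read 6.25, 6.92 and 6.24 in the CD44-positive arrays, against 6.33, 6.89 and 6.07 in the CD44-negative arrays. The array numbered 02 was the highest in both groups, and the difference was 0.039, with a 95% interval from -0.53 to 0.61 without and from -0.14 to 0.22 with the replicate block. Probe sets that list PVT1 with MIR1204 differed by -0.040 to 0.33, as given below, so this value holds for 1 probe set. POU5F1B stood at 7.14, 7.47 and 7.12, against 6.94, 7.58 and 7.22 in CD44-negative arrays, a difference of -0.0075 (95% interval -0.40 to 0.39). Its probe set carries the suffix for cross-hybridisation, and POU5F1 and its copies are near-identical in sequence, so this gene is uncertain. NSMCE2 differed by 0.014 (-0.24 to 0.27), TRIB1 by 0.016 (-0.21 to 0.24) and SQLE by -0.057 (-0.34 to 0.23), with levels over the 6 arrays of 9.28 to 9.55, 8.48 to 8.76 and 10.62 to 11.04.

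Where these genes had several single-gene probe sets, the others gave differences of at most 0.11 in size. The 4 SQLE probe sets lay between -0.081 and 0.047. The TRIB1 probe set 239818_x_at differed by 0.11 and the CYRIB probe set 228987_at by -0.041. In all, 20 of the 23 probe sets passed the dim limit for probe sets (4.41), and 3, of LRATD2, TRIB1 and CYRIB, were dim.

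A further 5 probe sets list 1 of these genes together with others and were not counted. Of these, 4 list PVT1 with MIR1204. Among all probe sets they stood at percentile 91.9 (1562153_a_at), 85.2 (222087_at), 78.0 (1558290_a_at) and 58.2 (216240_at), beside 65.1 for the probe set of PVT1 alone. Their differences were 0.28 ± 0.38, 0.33 ± 0.32, -0.040 ± 0.13 and 0.24 ± 0.14 (SE, adjusted p = 1.00 each). With the replicate block the adjusted p of the first was 0.628, of 222087_at 0.594 and of 216240_at 0.609. In these 3 all pairs were higher, by 0.054 to 0.627, as in 13.6% of all probe sets tested. The fifth, 208286_x_at, lists POU5F1B with POU5F1 and other copies of it and differed by 0.11.

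The 10 genes differed widely in their spread between arrays of 1 group. MYC had a pooled SD within groups of 0.050, at percentile 4.3 of tested genes, and at percentile 14.9 among the 989 genes at or above the 95th percentile of level. PVT1 had 0.41 (percentile 97.4 of SD), LRATD2 0.35 (95.9), ASAP1 0.27 (90.3) and POU5F1B 0.26 (89.9), while CYRIB, SQLE and NSMCE2 lay between 0.13 and 0.17, around the median of 0.135 over all tested genes. TRIB1 at 0.10 and GSDMC at 0.068 were steadier. Most of the 989 bright genes lie below MYC in level. Whether the small spread of MYC reflects compression near the top of the scale was not tested.

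Much of that spread was shared by arrays of the same number. PVT1, POU5F1B and LRATD2 were highest in the array numbered 02 in both sorts. For PVT1 the mean of the 2 arrays was 6.29, 6.91 and 6.15 for numbers 01, 02 and 03, a range of 0.75 that exceeds that of 97.6% of tested genes. For LRATD2 it was 11.53, 12.09 and 11.63, and for POU5F1B 7.04, 7.52 and 7.17. CYRIB, SQLE and ASAP1 were lowest in the array numbered 02 in both sorts, with means of 9.21, 10.73 and 8.02 there. MYC was lowest in it too, but its range over the numbers was 0.095. The same number gave the highest array in both sorts in 5 of the 10 genes, beside 53.5% of all tested genes, so that sharing is not particular to them.

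The probe sets listed to PVT1 with MIR1204 did not all show the high 02 arrays. In 1562153_a_at the levels were 9.33, 10.16 and 9.15 in CD44-positive and 8.87, 10.10 and 8.84 in CD44-negative arrays. In 222087_at they were 8.01, 9.11 and 8.74 against 7.89, 8.86 and 8.11. Both were highest in the 02 arrays, as was 216240_at, whereas 1558290_a_at was highest in the 03 arrays, at 7.83 and 7.84.

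**Figure D4:**
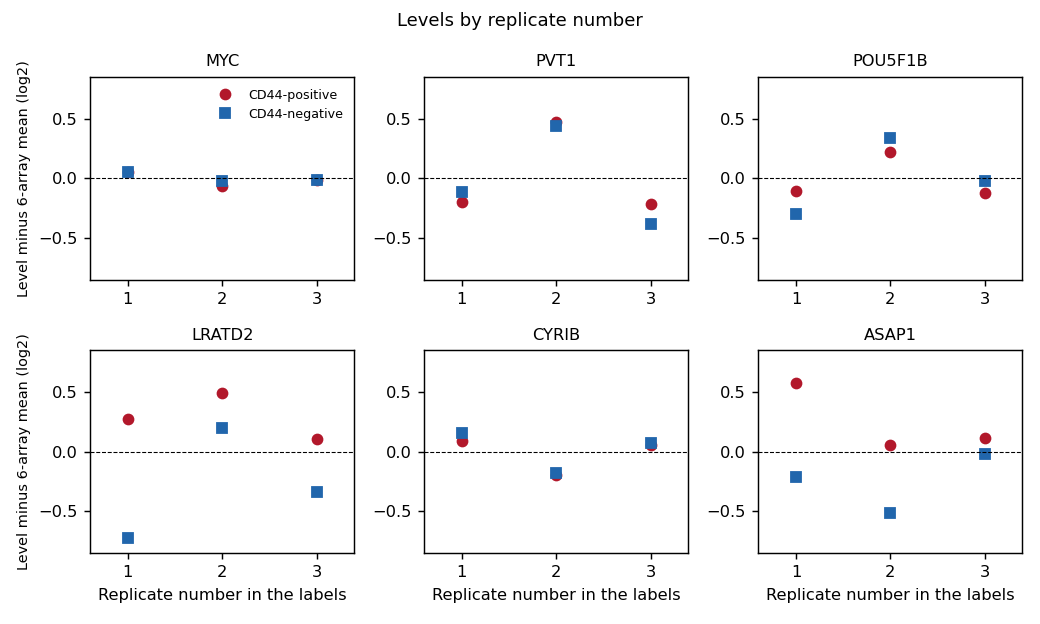
Level minus the mean of the 6 arrays (log2, vertical axis) by replicate number (horizontal axis) for 6 of the genes, with circles for CD44-positive and squares for CD44-negative arrays. PVT1, POU5F1B and LRATD2 are highest at number 2 in both sorts, MYC hardly moves, and the ASAP1 circles lie above the squares at each number.

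Other genes around MYC differed less than LRATD2 and ASAP1. Of 36 further 8q24 genes on the arrays, 29 were tested and none was called, as none of all 13842 genes was. Of the 29, 11 were higher and 18 lower, with a median of -0.023. TMEM65, a mitochondrial membrane protein, differed by 0.21 and KHDRBS3, an RNA-binding splicing regulator, by 0.13. On the other side PHF20L1, a reader of methylated lysine, differed by -0.23 and the hyaluronan synthase HAS2 by -0.18. PHF20L1 was the 1 gene of the 29 without overlap between the groups, beside 5.43% of all genes. Over the 40 places on each side of MYC, the 49 tested genes outside the chosen 10 lay between -0.23 and 0.21. LRATD2 and ASAP1 thus had the 2 largest differences of the stretch. The groups did not overlap in 3 of its 59 tested genes, ASAP1, PHF20L1 and MRPL13 (-0.13), beside 5.43% of all genes. By limma the unadjusted p was 0.027 for PHF20L1, beside 0.029 for LRATD2 and 0.021 for ASAP1. None of these genes passed with the replicate block.

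The genes that MYC works with were read next. Since 0 of all 13842 genes passed the main fit, a list without a called gene is no result about it, here and below. None of the 12 tested partners and antagonists was called, with 8 higher and a median of 0.050. MAX stood at 10.15 ± 0.17 in CD44-positive and 10.18 ± 0.11 in CD44-negative cells (SD, n = 3 each). The MYC paralog MYCN differed by 0.55 ± 0.31 (SE, adjusted p = 1.00), at 7.40 ± 0.35 against 6.85 ± 0.63, with overlapping groups. MLXIPL, a glucose-responsive factor, differed by 0.18, MXD3, a MAX partner that opposes MYC, by -0.11 and MNT, another such partner, by -0.048. The groups did not overlap in 2 of these 12, MLXIPL among them, nor in 1 of the 14 genes that follow, USP36, beside 5.43% of all genes. Of 14 genes of MYC turnover and coactivation 4 were higher and none was called, with AURKA, a kinase that stabilises MYC family proteins, at 0.022, CDK9, the elongation kinase, at 0.027, the deubiquitinase gene USP36 at -0.13 and the ubiquitin ligase gene SKP2 at -0.12.

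Target genes of MYC were mostly bright, and none passed the test, as none of all 13842 genes did. Of 31 tested, 27 lay at or above the 75th percentile of level and 12 at or above the 95th, and 13 were higher and 18 lower, with a median difference of -0.0083. The replication gene MCM5 differed by 0.21 and TFAP4, a transcription factor, by 0.17, while the nucleolar gene NCL differed by -0.091 and the importin gene IPO4 by -0.095. Among 7 tested genes that MYC represses, the median was 0.010. CDKN1C differed by 0.40 ± 0.63 (SE), NDRG2 by 0.077, CDKN1B by -0.095 and GAS1 by -0.036. None of either list was called, and none with the replicate block.

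The pathways of the neighbours held no called gene, as none of all 13842 genes was called. Of 16 tested genes of sterol synthesis, to which SQLE belongs, 10 were higher, with a median of 0.044. INSIG1, which holds back sterol regulation, differed by 0.15, SREBF2, a master regulator of the pathway, by 0.10, HMGCS1, an early enzyme, by -0.13 and SC5D, a late one, by -0.067. Among 7 tested genes of the SMC5/6 complex with NSMCE2, SLF1 differed by 0.097, NSMCE1 by 0.081, SMC5 by -0.13 and NSMCE3 by -0.11. In the list of tribbles and COP1 partners around TRIB1, COP1 differed by 0.019, CEBPA by 0.013, CEBPB by -0.20 and TRIB3 by -0.092. None of these was called.

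In the lists that belong to GSDMC, ASAP1 and CYRIB, no gene was called either, as none of all 13842 genes was. GSDME, a gasdermin that caspase-3 cleaves, was 5.79 ± 0.10 in CD44-positive and 5.32 ± 0.17 in CD44-negative cells (SD, n = 3 each), a difference of 0.47 ± 0.11 (SE, adjusted p = 1.00, with the replicate block 0.246), with no overlap between the groups. Both levels were close to the dim limit. The other tested gasdermins, GSDMB, GSDMD and PJVK, lay between -0.062 and 0.021. Of 12 genes of ARF proteins and the RAC1-WAVE pathway, 8 were higher. ASAP3 differed by 0.13, CYFIP1 by 0.12, NCKAP1 by -0.10 and WASF3 by -0.25, the last without overlap between the groups. The groups did not overlap in 1 of the 4 tested gasdermins and in 2 of these 12 genes, beside 5.43% of all genes. Of the pluripotency factors listed for POU5F1B, SALL4 differed by 0.11, KLF4 by -0.12 and SOX2 by -0.10, at levels between 5.11 and 6.09.

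The marker lists had no called gene, as none of all 13842 genes was called. The largest differences in each direction were KRT20 (0.63), CDH17 (0.29), KRT18 (-0.098) and LGALS4 (-0.084) for colon epithelium, and COL3A1 (0.78), FBLN1 (0.37), COL1A1 (-0.23) and PDGFRB (-0.13) for fibroblasts. For leukocytes they were CD3E (0.054), ITGAM (-0.14) and PTPRC (-0.082), and for endothelium VWF (0.091), CLDN5 (0.011), EGFL7 (-0.097) and TEK (-0.056). The adjusted p of COL3A1 was 0.053 with the replicate block. The groups did not overlap in 2 of 7 tested fibroblast and 1 of 10 tested epithelial markers, beside 5.43% of all genes. They overlapped in every tested leukocyte and endothelial marker.

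The neighbourhood of CDX2 at 13q12 was read as another stretch with bright genes, and none of its genes passed the test. CDX2, an intestinal transcription factor, stood at 11.61 ± 0.09 in CD44-positive and 11.69 ± 0.20 in CD44-negative cells (SD, n = 3 each), a difference of -0.077 (95% interval -0.35 to 0.20). Of 13 genes there 4 reached the 95th percentile, CDX2, POLR1D, GTF3A and POMP, beside 3 of the 10 around MYC. None of 9 tested was called, as none of all 13842 genes was, with 1 higher and 8 lower and a median of -0.085. The groups did not overlap in 1 of the 9, beside 5.43% of all genes. GTF3A differed by -0.11, LNX2 by -0.11 and USP12 by 0.0037.

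By the distance between 6 mean-centred values, the genes most like MYC were VAMP7, C4orf46 and DHX16, at a root mean square distance of 0.011 to 0.015 against a median of 0.12 over all tested genes. They ranged by 0.11 to 0.14 over the 6 arrays, and a steadiness like that of MYC follows from choosing them by this distance. The genes most like PVT1 were CTRL, TERF2 and TMEM216, at 0.084 to 0.094 against a median of 0.35. Each was highest in the 02 array of both sorts, which the choice by distance to PVT1 also favours. Distances below the median are given by the choice as well, so neither list is evidence of a link with MYC or PVT1.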

How the data were processed

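Total RNA of COLO-320DM cells, sorted by CD44, was read on 6 Affymetrix arrays, grouped by their titles. The deposited values are intensity values after RMA, which subtracts background, equalises the arrays and summarises probes, per the submitters' processing notes. The genome build and the RMA version are not given in the sources used here. Since the deposited table was linear, log2 was taken with no pseudocount. The annotation named 1 gene for 41091 of 54613 probe sets other than controls, several for 1801 and none for 11721. Symbols were updated from RefSeq through gene IDs for 41037 probe sets.

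Genes were tested with limma 3.58.1 in R 4.3.3 (lmFit, eBayes, Benjamini-Hochberg over all genes, threshold 0.05). Python 3.11.15 ran the tables (numpy 2.4.6, pandas 2.3.3) and the figures (matplotlib 3.10.9). The number of arrays limits precision. Arrays sharing a number deviated together from their group means (correlations 0.465, 0.689 and 0.626), so same-numbered arrays were treated as pairs in the alternative fit with the replicate block. The pairing comes from the data, not from the labels. The main fits, of genes and of probe sets, had no block. Errors, intervals and p-values from limma are those of the main fits unless the block is named. On simulated data for 13842 genes, changes of 1 (log2) were recovered in 88.1% without and 68.7% with the block, with 11 and 2 false calls. Changes of 0.5, near the size seen in LRATD2 and ASAP1, were recovered in 44.8% and 0%. The simulated noise was independent for each array, without the sharing by number seen here. These shares therefore do not rank the 2 fits on the real arrays.

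The genes and lists were chosen with earlier results of these data known. Named were the 10 genes, CD44, the 3 neighbours on each side of MYC, genes at or above the 95th percentile in the gene order, up to 4 genes a list (those called, otherwise the 2 with the largest difference in each direction) and the 3 genes most like MYC and PVT1. Other names were chosen after their values were seen. Alternatives were the replicate block, median centring, quantile normalization, other dim limits, other probe set rules, a variance trend, array weights and leaving out arrays or pairs. Sequence is not printed here.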

Additional observations from a re-analysis of the deposited data

How the results depend on the processing

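The 10 differences were recomputed under 19 alternatives, which gave 186 values, 159 of them with the same sign and the same side of the threshold. Of the rest 25 changed sign, all in genes that lie near 0, and 2 passed the threshold. Some alternatives cannot move a difference, only its error and p-value. They are the replicate block with all arrays, the dim limits, the variance trend and the test of every probe set. Where a gene keeps the same probe set, the probe set rules cannot move it either. The count of 159 partly follows from this and is no measure of robustness. Quantile normalization turned MYC to 0.024, and array weights turned POU5F1B to 0.16 and TRIB1 to -0.046. Leaving out 1 array gave -0.044 to 0.013 for MYC, -0.19 to 0.27 for PVT1, -0.16 to 0.16 for POU5F1B, -0.051 to 0.090 for TRIB1, -0.064 to 0.089 for NSMCE2, -0.15 to 0.058 for SQLE and -0.13 to 0.057 for CYRIB, and with no change of sign 0.36 to 0.82 for LRATD2, 0.33 to 0.61 for ASAP1 and -0.12 to -0.042 for GSDMC. With the replicate block and 1 pair left out, the ranges were -0.020 to -0.0017 for MYC, -0.025 to 0.099 for PVT1, -0.11 to 0.047 for POU5F1B (0.038 without pair 03), 0.37 to 0.72 for LRATD2 (called without pair 02), -0.068 to 0.088 for TRIB1, -0.0021 to 0.031 for NSMCE2, -0.18 to 0.028 for SQLE, 0.35 to 0.68 for ASAP1 (called without pair 03) and -0.041 to -0.015 for CYRIB. The number of the 10 genes called was 0 to 1 in these fits and 0 in the others. Over all genes the count was 8 with the replicate block, 2 with no dim filter, and 1 each without the _s_at, _x_at or _a_at suffix, with array weights and with every probe set. It was 0 to 1 without 1 array, and 15, 78 and 109 with the block without pairs 01, 02 and 03. The block changed no call among the 10 genes. When probe sets were averaged by gene, the level percentiles were 99.97 for MYC, 60.8 for PVT1, 72.3 for POU5F1B, 90.3 for LRATD2, 47.5 for TRIB1, 92.7 for NSMCE2, 87.0 for SQLE, 48.2 for GSDMC and 64.4 for CYRIB. With probe sets free of those suffixes they were 58.9 for PVT1, 83.5 for TRIB1, 90.9 for NSMCE2, 97.7 for SQLE, 79.6 for ASAP1 and 68.5 for CYRIB, and fewer genes were ranked. MYC, POU5F1B and GSDMC have no such probe set, and GSDMC was dim at the 50th percentile limit, so these gave no value. The causes of these shifts were not tested.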
